A study of Mus musculus with 10 samples.

Results

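Wdr17 is a gene of mouse chromosome 8 that was lower in the main olfactory epithelium (MOE), the sensory lining of the nose, of H2be-GF mice than in that of wild-type (WT) mice. It is described here together with Vegfc, Spcs3, Asb5 and Spata4, which precede it along the chromosome, and Gpm6a, which follows it, to ask whether the lower level was found in that gene alone. The 6 genes were each read by 1 probe set, a group of array probes summarised to a single value, with a single gene symbol in the platform annotation. They are 6 of the 21789 probe sets of the array that carry 1 symbol. Wdr17 was chosen because its values in this same comparison differed between genotypes, so its difference is given as a description with no test. The other genes were taken for their place next to it, and all 6 passed the filter on dim signals (a mean log2 value over all arrays above 5).

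The data are log2 signals of whole MOE from 10 Affymetrix Mouse Gene 1.0 ST arrays of mice aged 5 weeks, 4 from H2be-GF mice and 6 from WT mice. H2be-GF mice carry a transgene in which the promoter of Omp, the gene of olfactory marker protein, drives a FLAG-tagged copy of the histone variant H2BE. They are a single line, set up by breeding founders with C57Bl/6 mice, that carries several copies of the transgene, and where these inserted was not analysed here. The methods describe the transgene as active in mature neurons across the MOE except for a band that does not express it. WT arrays carry no transgene, and neither their strain nor whether they were littermates is given for the arrays in the sources used here. The RNA on an array came from a pool of several animals, more of them for an H2be-GF array, so p-values measure the spread between pools. The series is stated to hold males and females in equal parts, but sex is given for no array. Xist, the RNA of the inactive X chromosome, divided the arrays: H2be-GF 1 and 2 and WT 1, 2 and 3 had a log2 signal no lower than 11.7, while H2be-GF 3 and 4 and WT 4, 5 and 6 had 4.61 at most. They are called the Xist-high and the Xist-low set. Eif2s3y, a gene of the Y chromosome, stood at 0 on all Xist-high arrays and at 10.47 to 10.79 on the Xist-low arrays. This is the pattern of female pools in the Xist-high and male pools in the Xist-low set. Omp, a marker of mature olfactory neurons, averaged 12.78 ± 0.03 (SD) over the 4 H2be-GF arrays and 12.88 ± 0.04 (SD) over the 6 WT arrays (limma adjusted p = 0.659), and Hist2h2be, the gene of H2BE itself, 11.84 ± 0.07 over the H2be-GF arrays and 12.07 ± 0.05 over the WT arrays (limma adjusted p = 0.297). Hist2h2be was thus not higher in the arrays labelled H2be-GF. The paper, by contrast, reports from quantitative PCR that the transgene of this line is expressed well above endogenous H2be. The transgene holds the coding sequence of H2BE in place of that of Omp, and which part of the transcript the Hist2h2be probe set reads was not analysed here, so that its value does not check the label. Whether the Omp probe set reads other Omp sequence kept in the transgene was not analysed either, so its value is no firm check of neuron content.

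The 6 genes share a place on the chromosome and are not known to share a function. Wdr17 codes for a protein with WD repeats, short units that fold into a propeller on which other proteins bind, and its own function is little described. Spata4 is named for spermatogenesis, and its product is known mainly from testis. Asb5 codes for an ankyrin repeat protein with a SOCS box, the part by which such proteins join a ubiquitin ligase built on cullin-5. Spcs3 codes for a subunit of the signal peptidase, which cuts signal peptides from proteins entering the endoplasmic reticulum. Gpm6a codes for a membrane glycoprotein of neurons, a relative of the myelin proteolipid protein. Vegfc codes for a secreted growth factor that acts on lymphatic vessels through the receptor FLT4.

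In the RefSeq start windows of assembly GRCm38.p6, Wdr17 is read from the minus strand and Vegfc, Asb5, Spata4 and Gpm6a from the plus strand, so that the 3′ end of Wdr17 faces that of Spata4 and its 5′ end faces the start of Gpm6a. The windows cover 5 of the 6 genes, with 11 starts in all, 4 of them for Wdr17. Which start the MOE uses cannot be read from these arrays. The start of Wdr17 shown here is the one richest in G and C among the 4, at 66.7% against 37.8% to 38.5%. It is printed beside that of Spata4, the nearest gene before it, because these are the starts among the 11 that hold letters of an X-box, the site of the RFX transcription factors, which are known for ciliary genes. Each window runs from 250 bases before the start to 20 after it, 5′ to 3′, and capitals mark the X-box letters.

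Wdr17, GRCm38.p6 chr8:54724349-54724618, minus strand: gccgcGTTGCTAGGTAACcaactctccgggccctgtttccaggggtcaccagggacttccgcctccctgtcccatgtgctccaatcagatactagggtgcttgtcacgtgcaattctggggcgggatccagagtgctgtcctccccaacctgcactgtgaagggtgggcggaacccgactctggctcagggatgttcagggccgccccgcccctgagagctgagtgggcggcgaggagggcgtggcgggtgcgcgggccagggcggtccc

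Spata4, GRCm38.p6 chr8:54600531-54600800, plus strand: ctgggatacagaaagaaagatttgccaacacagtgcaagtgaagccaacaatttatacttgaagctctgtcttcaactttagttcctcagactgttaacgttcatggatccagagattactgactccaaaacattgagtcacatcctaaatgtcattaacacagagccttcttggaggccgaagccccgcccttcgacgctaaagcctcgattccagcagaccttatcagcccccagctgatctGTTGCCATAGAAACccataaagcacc

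The letters searched, on both strands, were GTTGCNNNGNAAC and GTTGCNNNNGNAAC, 2 spellings of the X-box that were chosen after the windows were read. In Wdr17 the match spans bases -245 to -233 and in Spata4 bases -6 to 8, counted from the start with no base 0. Either spelling was found in 409 of 32851 windows of the same length over the genome, which is 1.25%. The Olf/EBF site of olfactory genes, searched as TCCCNNGGGA, was found in 0 of the 11 windows and in 0.843% of all windows. A match of letters does not show that a factor binds there.

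The Wdr17 signal of each H2be-GF array was below that of each WT array. Its one probe set (10578709), whose position in the gene and hence the transcripts or exons it reads were not analysed here, stood at 9.53, 9.54, 9.45 and 9.38 on the H2be-GF arrays, against 10.23, 10.02, 10.23, 10.30, 9.98 and 10.23 on the WT arrays. The groups did not overlap, and the highest H2be-GF array lay 0.44 (log2) below the lowest WT array, a gap wider than the whole range of the H2be-GF arrays (0.16) or of the WT arrays (0.32). The mean was 9.47 ± 0.08 (SD) over the 4 H2be-GF arrays and 10.17 ± 0.13 (SD) over the 6 WT arrays, a change of -0.69 (log2, SE 0.08) or 0.619-fold. In limma, a linear model fitted to all probe sets, 20 of 23194 (0.0862%) had an adjusted p under 0.05, the threshold for a call here, and 9 of these (0.0388%) were lower in H2be-GF, Wdr17 among them. All H2be-GF arrays lay below all WT arrays at 1.6% of the probe sets and above them at 1.29%. Since Wdr17 was chosen from this comparison, nothing is read from these shares about it. In bulk tissue fewer cells that express a gene and less of its RNA per cell cannot be told apart.

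The Wdr17 difference is given here within each set of arrays, as a description. In the Xist-high set, Wdr17 averaged 9.54 on the 2 H2be-GF arrays and 10.16 on the 3 WT arrays, a change of -0.62. In the Xist-low set it averaged 9.41 on the 2 H2be-GF arrays and 10.17 on the 3 WT arrays, a change of -0.76. In each set the H2be-GF arrays lay below the WT arrays. This had to be so, since each H2be-GF array lay below each WT array over all 10, and it adds no support. The difference between the sets' changes was 0.14 (SE 0.17) and was not called (limma adjusted p = 1 for the interaction of genotype and set). Of all probe sets 0% were called in that interaction, and 678 had an unadjusted p under 0.05.

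**Figure D1:**
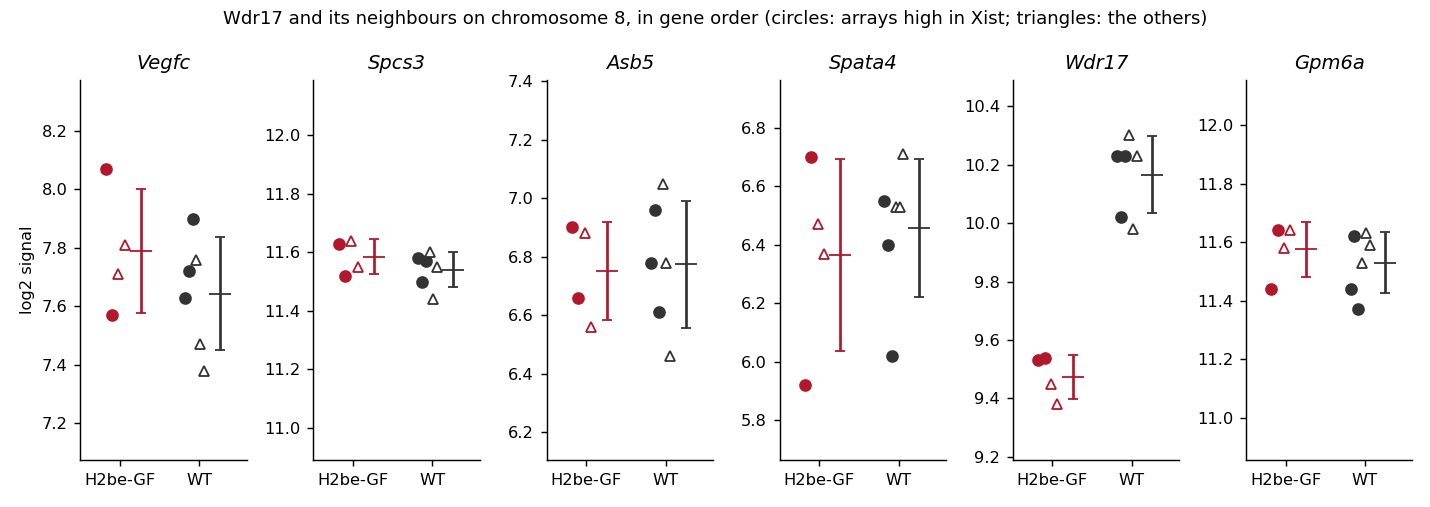
Log2 signal of the 6 genes in their order on chromosome 8, on each of the 4 H2be-GF (red) and 6 WT (dark) arrays, with bars at the side for the mean ± SD per genotype; circles belong to the Xist-high set, triangles to the Xist-low set, and all panels span the same range. Wdr17 is at 9.54 or below on the H2be-GF arrays and at 9.98 or above on the WT arrays, while the arrays of the other 5 genes overlap.

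None of the 5 neighbours was called by limma (0 of 5), where 0.0862% of all probe sets were called. None had an unadjusted p under 0.05 either (0 of 5), where 8.43% of all probe sets did, and H2be-GF and WT arrays overlapped for all 5. The 95% interval of the change lay wholly above the -0.69 of Wdr17 for each of the 5, as it did for 98.2% of all probe sets, so this is a description of the 5 and nothing particular to them. The intervals are wide enough to leave room for smaller changes in either direction.

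Spata4, next to Wdr17 on the side of its 3′ end, stood at 5.92, 6.70, 6.47 and 6.37 on the H2be-GF arrays, against 6.55, 6.40, 6.02, 6.53, 6.53 and 6.71 on the WT arrays. The array H2be-GF 1 held its lowest value and H2be-GF 2 nearly its highest. The change was -0.09 (SE 0.16, 95% interval -0.43 to 0.25, limma adjusted p = 0.911). With a mean of 6.42 it was the dimmest of the 6 genes and had the widest interval. Within the Xist-high set the Spata4 difference was -0.01 and within the Xist-low set -0.17, where both H2be-GF arrays lay below the 3 WT arrays. No share of such probe sets was computed for so few arrays, so nothing is read from that order. The difference between the sets' changes was 0.16 (SE 0.31) and was not called. Without the array H2be-GF 1 its sign turned, to 0.06.

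Gpm6a, next to Wdr17 on the side of its start, stood at 11.44, 11.64, 11.58 and 11.64 on the H2be-GF arrays, against 11.44, 11.62, 11.37, 11.53, 11.63 and 11.59 on the WT arrays. H2be-GF 1 was the low array among the H2be-GF ones and lay within the WT range. The change was 0.04 (SE 0.07, 95% interval -0.12 to 0.21, limma adjusted p = 0.911), which in linear terms bounds it between 0.923-fold and 1.15-fold.

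Asb5 stood at 6.90, 6.66, 6.88 and 6.56 on the H2be-GF arrays, against 6.78, 6.96, 6.61, 7.05, 6.78 and 6.46 on the WT arrays. All 4 H2be-GF values fell within the WT range. The change was -0.03 (SE 0.12, 95% interval -0.29 to 0.23, limma adjusted p = 0.969).

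Spcs3 varied little between arrays. It stood at 11.63, 11.52, 11.64 and 11.55 on the H2be-GF arrays, against 11.58, 11.50, 11.57, 11.60, 11.44 and 11.55 on the WT arrays. The highest H2be-GF values lay just above the WT range. Its change of 0.04 (SE 0.06, 95% interval -0.08 to 0.17, limma adjusted p = 0.885) had the narrowest interval of the 5, from 0.944-fold to 1.13-fold.

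Vegfc, the gene farthest from Wdr17 among the 5, stood at 8.07, 7.57, 7.71 and 7.81 on the H2be-GF arrays, against 7.63, 7.72, 7.90, 7.76, 7.47 and 7.38 on the WT arrays. H2be-GF 1 was the highest of all arrays, and the other H2be-GF arrays lay within the WT range. The change was 0.15 (SE 0.12, 95% interval -0.11 to 0.41, limma adjusted p = 0.771).

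When each gene was set to its WT mean, the change of Wdr17 minus that of Spata4 was -0.60. The same difference was -0.67 against Asb5, -0.74 against both Spcs3 and Gpm6a, and -0.84 against Vegfc. For Spata4 the difference of the centred values ran from -0.87 to -0.09 on the H2be-GF arrays and from -0.26 to 0.50 on the WT arrays, which overlap. For the other 4 neighbours the 4 H2be-GF arrays all lay below the WT arrays. These differences contain the values by which Wdr17 was chosen and carry no test.

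No gene of a wider stretch of the chromosome was called. Among the 10 measured genes on each side of Wdr17, the 5 neighbours included, limma called 0 of 20, beside 0.0862% of all probe sets, and their changes ran from -0.35 to 0.19 with 10 below and 10 above 0. Their median was 0.00, beside 0.01 over all tested probe sets. At an unadjusted p under 0.05 there was 1 gene of the 20, beside 8.43% of all probe sets. Dctd, which codes for deoxycytidylate deaminase, stood at 9.14, 9.07, 9.03 and 9.14 on the H2be-GF arrays, against 8.97, 8.99, 8.76, 9.01, 8.82 and 8.89 on the WT arrays. Its H2be-GF arrays all lay above its WT arrays, at a change of 0.19 (SE 0.07, limma adjusted p = 0.453, unadjusted p = 0.0165). For 19 of the 20 genes the 95% interval lay wholly above the change of Wdr17, beside 98.2% of all probe sets. The exception, named after its values were seen, was Glra3, which codes for a subunit of the glycine receptor, at 5.97 ± 0.38 (SD) over the 4 H2be-GF arrays and 6.32 ± 0.21 (SD) over the 6 WT arrays (95% interval of the change -0.71 to 0.00, limma adjusted p = 0.594). Among 20 genes on each side, 0 of 40 were called, and without adjustment 2 were higher and 1 was lower at a p under 0.05. Over chromosome 8 as a whole, limma called 1 of 1024 probe sets, that of Wdr17. The changes of the other 946 genes tested ran from -0.65 to 1.05. All H2be-GF arrays lay below all WT arrays for 20 of them and above for 15, beside 1.6% and 1.29% of all probe sets. Without adjustment, 49 of the 946 other genes tested there were higher and 44 were lower at a p under 0.05, which is 9.83% beside 8.43% of all probe sets.

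**Figure D2:**
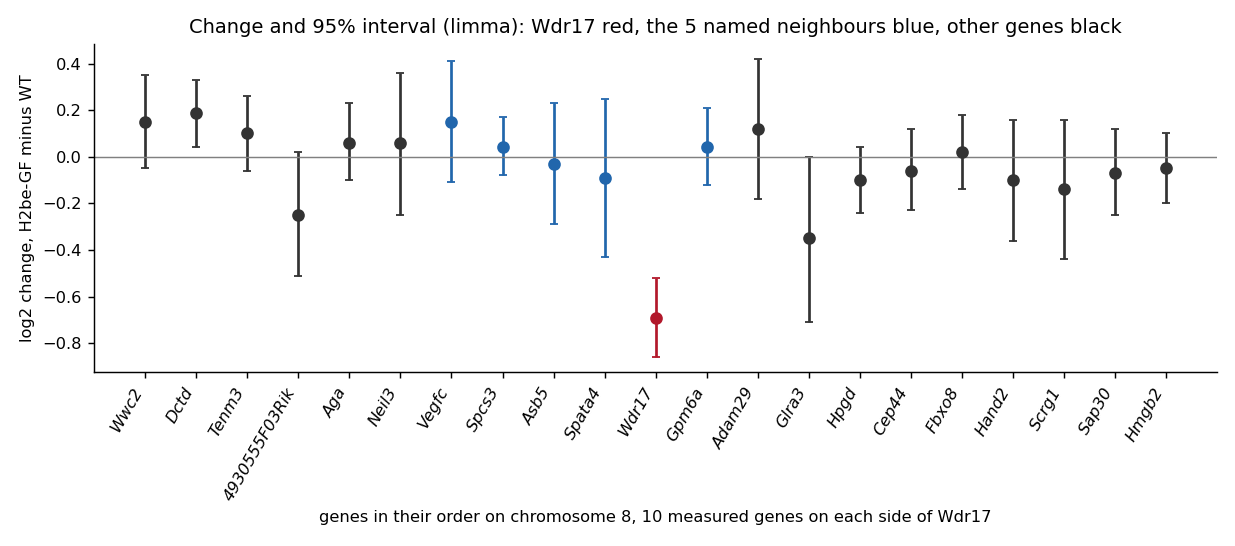
Log2 change (H2be-GF minus WT) with its 95% interval in limma for Wdr17 (red), its 5 neighbours (blue) and 15 further genes (black), in their order on chromosome 8. Wdr17 is at -0.69, and the changes of the other 20 genes lie between -0.35 and 0.19.

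None of the 6 genes was called between the Xist-high and the Xist-low set. Wdr17 averaged 9.91 ± 0.35 (SD) over the 5 Xist-high arrays and 9.87 ± 0.43 (SD) over the 5 Xist-low arrays, a difference of 0.04 (SE 0.08) with genotype in the model. Spata4 averaged 6.32 ± 0.34 over the Xist-high and 6.52 ± 0.12 over the Xist-low arrays, a difference of -0.21 (SE 0.15). Vegfc averaged 7.78 ± 0.21 over the Xist-high and 7.63 ± 0.19 over the Xist-low arrays, a difference of 0.15 (SE 0.11). Limma called 0 of the 6 genes between the sets (adjusted p of 0.974 or above), and 0 of the 6 had an unadjusted p under 0.05. Of all probe sets 0.427% were called between the sets, and 1215 had an unadjusted p under 0.05.

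Other Wdr genes share the repeat with Wdr17 but do a variety of tasks in the cell. By adjusted and by unadjusted p they passed 0.05 no more often than all probe sets did. Apart from Wdr17, limma called 0 of 59 tested, beside 0.0862% of all probe sets. Without adjustment, 2 were higher and 1 was lower at a p under 0.05, a threshold that 8.43% of all probe sets passed. Their changes ran from -0.17 to 0.22 with a median of -0.02. Wdr20, a partner of deubiquitinating enzymes, had all its H2be-GF arrays above its WT arrays, at 9.43 ± 0.03 (SD) over the 4 H2be-GF arrays and 9.23 ± 0.05 (SD) over the 6 WT arrays (limma adjusted p = 0.324). Wdr44 had the highest change of these genes, at 0.22 (SE 0.08, limma adjusted p = 0.494), and its arrays overlapped between genotypes. Wdr18 lay the other way, with all its H2be-GF arrays below its WT arrays, at a change of -0.16 (SE 0.06, limma adjusted p = 0.532). Of all probe sets, 1.29% lay wholly above as Wdr20 did and 1.6% wholly below as Wdr18 did. Wdr20, Wdr44 and Wdr18 were named after their values were seen.

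The genes that work with the neighbours were not called either, and at 0.0862% called over all probe sets a count of 0 in lists of this size tells nothing particular about them. Without adjustment, 8.43% of all probe sets had a p under 0.05. Of 21 tested genes of the signal peptidase, the translocon and the signal recognition particle, which carry nascent proteins into the endoplasmic reticulum, 0 were called by limma. Their median change was 0.02, and 1 gene had a p under 0.05 before adjustment. That gene was Sec61a2, which codes for a channel subunit, at 8.84 ± 0.12 (SD) over the 4 H2be-GF arrays and 8.64 ± 0.13 (SD) over the 6 WT arrays (limma adjusted p = 0.555). Sec63, a partner of the channel, followed at a change of 0.13 (SE 0.07, limma adjusted p = 0.657). Gpm6b, the relative of Gpm6a, was at a change of 0.07 (SE 0.06, limma adjusted p = 0.793). Of 22 genes of the Asb family and its cullin-5 ligase 0 were called by limma and 0 had a p under 0.05 before adjustment, with a median change of 0.02. Eloc and Elob, which code for the adaptor that binds the SOCS box, were at 0.14 (SE 0.07, limma adjusted p = 0.604) and -0.11 (SE 0.06, limma adjusted p = 0.623). Of 7 genes of the VEGFC pathway, its receptors and processing factors included, 0 were called by limma and 0 had a p under 0.05 before adjustment, with a median change of 0.05. The receptor gene Nrp2 was at a change of 0.10 (SE 0.06, limma adjusted p = 0.689).

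**Figure D3:**
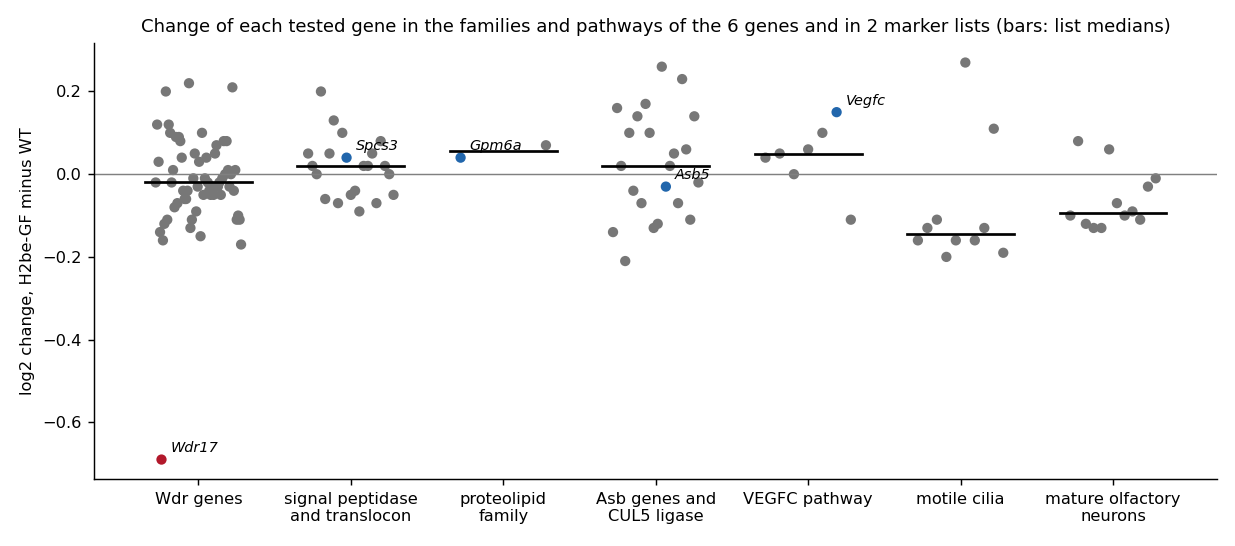
Log2 change (H2be-GF minus WT) of each tested gene in the families and pathways of Wdr17 and its neighbours and in the marker lists of motile cilia and mature olfactory neurons; black bars are list medians. Wdr17 (red) lies at -0.69, while the other Wdr genes lie between -0.17 and 0.22.

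Of the marker lists for 13 cell types or tissues the MOE dissection could hold, 2 had a lower summed signal on every H2be-GF array than on any WT array. Among single probe sets, all H2be-GF arrays lay below all WT arrays at 1.6%, and no such share was computed for summed lists. The summed linear signal of 10 genes of motile cilia, the beating cilia of the respiratory epithelium, was 5159 to 5416 on the H2be-GF arrays and 5558 to 6173 on the WT arrays, a ratio of means of 0.909. Of these genes 8 had a change below 0, with a median change of -0.14, and before adjustment 5 were lower and 1 was higher at a p under 0.05, beside 8.43% of all probe sets, while limma called 0, beside 0.0862%. Of these, named after their values were seen, Tekt1, which codes for a tektin of the ciliary microtubules, was at a change of -0.19 (SE 0.06, limma adjusted p = 0.405) and Foxj1, the regulator of motile cilia, at -0.16 (SE 0.06, limma adjusted p = 0.522). Hydin, which codes for a protein of the central pair of microtubules in these cilia, went the other way at 0.27 (SE 0.10, limma adjusted p = 0.454), the change farthest from 0 in the list, and Spag6, of the same structure, was at 0.11. The summed signal of 12 genes of mature olfactory neurons, Omp included, was 46745 to 49180 on the H2be-GF arrays and 49443 to 52178 on the WT arrays, a ratio of 0.954. Of these 10 had a change below 0, with a median change of -0.10 and 0 called by limma. Its one gene with a p under 0.05 before adjustment, likewise named after its values were seen, was Cnga4, which codes for a subunit of the olfactory transduction channel, at -0.13 (SE 0.06, limma adjusted p = 0.587). No gene of either list was at 0 on an array. The part of either cell type in the lower Wdr17 signal was not tested.

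**Figure D4:**
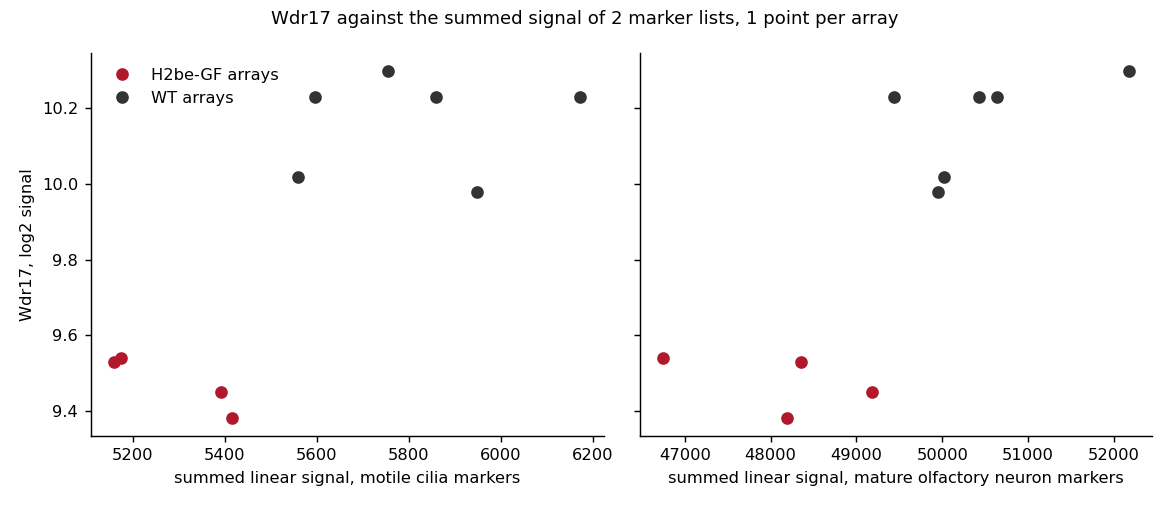
Wdr17 log2 signal (vertical) against the summed linear signal of motile cilia markers (left) and of mature olfactory neuron markers (right) on each of the 4 H2be-GF (red) and 6 WT (dark) arrays. The summed signals are 5159 to 5416 on H2be-GF and 5558 to 6173 on WT arrays for motile cilia, and the genotypes separate on both axes. Wdr17 was chosen for its difference, and these are the 2 of 13 marker lists whose sums separate. The separation thus follows from what is shown and is no evidence of a link.

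The other 11 marker lists overlapped between genotypes in their summed signal. Median changes were -0.02 for lymphatic endothelium (7 genes), the tissue on which VEGFC acts, 0.06 for blood endothelium (9 genes) and -0.01 for skeletal muscle (14 genes), a tissue known to express Asb5. They were 0.00 for immature neurons (9 genes), -0.01 for progenitors (6 genes), -0.09 for horizontal basal cells (4 genes) and 0.02 for sustentacular cells (7 genes). They were 0.03 for ensheathing glia (5 genes), -0.04 for Bowman's glands (6 genes), -0.03 for bone (4 genes) and -0.27 for red blood cells (2 genes). Over the 13 lists 0 of 95 tested genes were called by limma, and before adjustment 4 were higher and 9 were lower at a p under 0.05, beside 8.43% of all probe sets.

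The genes whose signal was most like that of Wdr17 over the 10 arrays were looked up with and without the genotype difference. Of 19764 genes compared, with the arrays as measured, Cfap100, a gene of cilia and flagella, had the highest Pearson correlation with Wdr17, at 0.97. It stood at 8.81 ± 0.04 (SD) over the 4 H2be-GF arrays and 9.15 ± 0.08 (SD) over the 6 WT arrays (limma adjusted p = 0.104). Sh3bgrl followed at 0.97, and the olfactory receptor genes Olfr1009 and Olfr1178 and the neuronal calcium sensor gene Vsnl1 each at 0.96. These correlations contain the genotype difference by which Wdr17 was chosen, so a gene without such a difference could not rank high, and all arrays share 1 normalization. The neighbours had 0.16 (Spata4), 0.06 (Asb5), -0.17 (Spcs3), -0.30 (Vegfc) and -0.39 (Gpm6a).

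With each genotype's mean subtracted, so that only the variation within genotypes was left, another set of genes led. Gm11545 had a correlation of 0.98 over the 10 arrays, Timm21, of a mitochondrial protein import complex, 0.96, Wdr43, a gene of ribosome assembly, 0.96, the nuclease gene Dis3 0.95 and the growth factor gene Bmp2 0.95. Their changes between genotypes lay between -0.04 and 0.23, and none was called (limma adjusted p of 0.691 or above). Spcs3 had a correlation of 0.70 with Wdr17 within genotypes and ranked at place 784. Vegfc had 0.21, Asb5 -0.02, Spata4 -0.04 and Gpm6a -0.58. The correlations describe 10 arrays and were given no p.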

How the data were processed

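Whole MOE of 5-week old mice was profiled on 4 H2be-GF and 6 WT arrays. The authors used Affymetrix Expression Console to summarise and normalize the scans (IterPLIER, sketch-quantile), looked for outlying arrays with arrayQualityMetrics, and deposited log2 values (0 to 14.2 over 35556 probe sets, array medians 7.74 to 7.91). Versions and genome build are not given in the sources used here. Quantile normalization hides a change shared by most genes, and dim probe sets are less certain.

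Probe sets were named from the platform annotation and updated by Entrez ID through RefSeq (GRCm38.p6), which matched 21698 of 21789 with 1 symbol and gave the gene order. Sequences are from RefSeq start windows. The 23194 probe sets with a symbol and a mean above 5 were fitted in limma 3.58.1 (R 4.3.3; lmFit, eBayes, two-sided, Benjamini-Hochberg over all of them, threshold 0.05), and a gene with several probe sets entered a list through its brightest one. Summed signals add the antilog of log2 values. The number of arrays limits precision. Same-numbered arrays were not treated as pairs in the main fit. Members, lists and tests were chosen with earlier results of these data known. Besides the 6 genes, named genes were those of the 10-gene windows at an unadjusted p under 0.05, up to 2 per family list by smallest p and the 5 most like Wdr17 by correlation. Glra3, Wdr20, Wdr44, Wdr18, Tekt1, Foxj1, Hydin, Spag6, Cnga4 and Alas2 fall outside this rule and were named after their values were seen. Omp and Hist2h2be were named as checks, with the limits given above. Alternatives covered normalization, an added constant of 16, variance model, array weights, filters, the replicate number as a block, the Xist set and leaving out each array. The procedure was tested on simulated data. Plots used matplotlib 3.10.9.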

Additional observations from a re-analysis of the deposited data

How the results depend on the processing

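The Wdr17 change kept its sign in all 21 alternatives and moved by less than the spread between replicates, from -0.76 to -0.62, and from -0.73 to -0.66 when 1 array was left out. The limma call by which it was chosen held in 18 of the 21. All of them reuse the arrays by which Wdr17 was chosen, so this count adds no support. The call was not made within the Xist-high or the Xist-low set alone (limma adjusted p = 0.92 and 0.91). Each of those fits held only 2 H2be-GF and 3 WT arrays. Nor was it made in the fit with a replicate block (limma adjusted p = 0.438 at a change of -0.72). The sources used here do not say whether a shared number marks a pair or a batch. Same-numbered arrays correlated at 0.53, 0.219, -0.423 and 0.261 after subtracting genotype means, which does not settle it. The count of neighbours called was 0 under all 21 alternatives (adjusted p of 0.7 or above), that of the genes around Wdr17 0 under all 22, and that of the 6 genes between the Xist sets 0 under all 11, also when 1 array was left out. Of 204 listed genes besides Wdr17, 0 were called, and 0 when 1 array was left out, but 1 with a trended robust variance (Alas2 of red blood cells, at -0.32, adjusted p = 0.0134). With 1 array left out, the change of Spata4 ran from -0.20 to 0.06 and that of Asb5 from -0.09 to 0.04. Their signs turned where Spata4 was at 0.06 without H2be-GF 1, and Asb5 at 0.00 without H2be-GF 2, 0.04 without H2be-GF 4, 0.01 without WT 2 and 0.03 without WT 4, none of them called. With a mean above 7 Spata4 and Asb5 were not fitted.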
